A study of Mus musculus with 6 samples.

Results

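The genes described here encode the proteins of the cytosolic ribosome, and they were followed in mouse embryonic stem cells with and without 3 linker histones. Members were chosen by name: a probe set was included where the platform annotation lists a gene whose symbol starts with Rpl or Rps and continues with a number, or Rplp0, Rplp1, Rplp2 or Rpsa, and the Rps6k kinases were left out. This gave 88 of 12422 probe sets that are not controls. Of these, 49 are listed with 1 gene and 39 with several genes, and the 2 kinds are described apart because a signal shared by several genes cannot be credited to any of them. With each several-gene probe set counted under 1 ribosomal protein gene, the 88 probe sets stand for 65 genes. The array lists 8949 gene names. Of the 65 genes, 60 are among the 76 on a list of large-subunit, small-subunit and stalk proteins, and 5 are paralogs of such genes. Other genes named by the same probe sets, such as Rpl36al beside Rpl36a, are not counted.

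Embryonic stem cells are pluripotent cells derived from the early embryo. Total RNA from exponentially growing cells was measured on 6 oligonucleotide arrays, which fall by their labels into wild-type cells and 2 lines lacking H1c, H1d and H1e. These genes are now named H1f2, H1f3 and H1f4, and their products are linker histones, which sit on the outside of the nucleosome and help to compact chromatin. Each of wild type, null line 1 and null line 2 has 1 array in experiment 1 and 1 in experiment 2. The labels name no other allele, treatment, culture condition or feeder layer, and leave unsaid whether each null line is a clone and whether a line's arrays stem from different cultures. The p-values therefore rest on a spread between arrays that may be technical only.

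A eukaryotic ribosome joins a small subunit, which reads the messenger RNA, to a large subunit, which forms the peptide bond and carries a flexible stalk that recruits elongation factors. Its proteins are made in near-equal amounts from genes scattered over the genome, and their messenger RNAs are among the most abundant of any growing cell. Most of these messages start with a cytosine followed by a run of pyrimidines, the terminal oligopyrimidine (TOP) motif, which ties their translation to growth signalling through mTOR and the La-related protein LARP1. Ribosomal protein messages have also given rise to many processed pseudogenes, and 36 of the 39 several-gene probe sets name a pseudogene or a predicted gene beside the ribosomal protein gene.

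The shared start of these messages was looked for in the windows that RefSeq gives for the gene starts (assembly GRCm38.p6), which cover 250 bases before to 50 after each listed start. Of the 65 genes, 51 matched, with 61 listed starts. A cytosine followed by 4 or more pyrimidines lay exactly at the listed start in 10 of the 61 windows (16.4%), against 2.51% of the 32851 windows of all genes. The stretches below run from 10 bases before the start to 20 bases from the start on, 5′ to 3′ on the strand of the gene, and show 6 of the 10 starts that carry the motif, all of genes with a tested probe set, and 3 stretches without it. Of the other starts with a run, Rpl15, Rpl35a and Rpl38 belong to genes with no tested probe set, and Rps15a is not shown. Capitals mark the unbroken pyrimidine run that begins at the listed start.
Rps10, chr17:27635225-27635254, minus strand: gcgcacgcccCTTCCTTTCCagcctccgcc
Rps18, chr17:33955646-33955675, minus strand: cacttccgctCTCTCTTCCacaggaggcct
Rps6, chr4:86857348-86857377, minus strand: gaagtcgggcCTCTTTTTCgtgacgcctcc
Rps27, chr3:90213629-90213658, minus strand: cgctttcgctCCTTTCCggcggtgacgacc
Rpl28, chr7:4792955-4792984, plus strand: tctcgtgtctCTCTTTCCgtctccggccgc
Rpl14, chr9:120571507-120571536, plus strand: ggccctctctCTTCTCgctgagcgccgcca
Rpl22, start at the lower coordinate, chr4:152324426-152324455, plus strand: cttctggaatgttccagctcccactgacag
Rpl22, start at the higher coordinate, chr4:152325716-152325745, plus strand: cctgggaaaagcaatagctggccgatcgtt
Rplp0, chr5:115559457-115559486, plus strand: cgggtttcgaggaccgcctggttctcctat
The run was 10 bases long at Rps10, 9 at Rps18 and Rps6, 8 at Rpl28, 7 at Rps27 and 6 at Rpl14. A window without a run says only that these letters do not begin at the start as listed. Over the whole 300-base windows and both strands, AAGATGGC, the core letters bound by YY1, was in 13.1% of the member windows against 2.75% of all windows. These were 8 windows from 6 genes, and some windows of the same gene overlap. The letters CCGGAAGT, bound by ETS factors, were in 14.8% against 3.89%, and TATAAA, the TATA box, was in 11.5% against 13.6%. These matches describe the letters of the windows, and the arrays carry no reading of factor binding.

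On the arrays, H1f2 served as the check of the labels: its signal was 70 and 68.2 intensity units in wild type, 11.1 and 11.5 in line 1, and 13 and 14.4 in line 2. The null average minus wild type was -2.30 ± 0.11 (SE, log2, 4 null against 2 wild-type arrays; limma, adjusted p = 0.00119), whereas the probe sets of H1f3 and H1f4 were at background on all 6 arrays and check nothing. Array medians lay between 34.1 and 39.5 intensity units. The highest of 19 bacterial and yeast control probe sets, taken as background, lay between 9.1 and 17.2. The trimmed mean of every array was 100.1, which shows scaling to a shared level, so a change shared by all RNA would not appear. All 11 stem cell markers were above background on all arrays, with a summed signal of 8215 to 8317 in wild type and 8620 to 9562 in the null lines. Of 10 fibroblast markers, 4 (Acta2, Fn1, Col1a2 and Col1a1) were above background on all arrays, none was at background on all, and the sum was 1357 to 1379 in wild type against 1008 to 1188 in the null lines. Of 7 extraembryonic endoderm markers, 5 were above background on all arrays, none was at background on all, and the sum was 248 to 304 in wild type against 194 to 284 in the null lines. Of 3 blood markers on the array, Cd3e and Ptprc were at background on all arrays, Hba-a1 was above it, and the sum was 39.6 to 49.4 against 30.6 to 63.4. The part of these other cells in the values below was not tested, and in RNA from whole cultures fewer cells of a type and less RNA per cell cannot be told apart.

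Ribosomal protein probe sets were among the brightest on the array. They supplied 46 of the 263 tested probe sets with a mean signal of 1000 or more (17.5%) and 30 of the 50 brightest. The 88 probe sets carried 8.98% and 9.18% of the summed signal in wild type, 9.26% and 8.89% in line 1, and 9.60% and 9.26% in line 2. The shares of the null arrays lay on both sides of the wild-type pair. Of the 49 single-gene probe sets, 23 had a mean of 1000 or more, 3 lay between 100 and 1000, and 23 lay under 100. Of the 39 several-gene probe sets, 23, 8 and 8 fell into these ranges.

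A probe set was tested where its mean over the 6 arrays reached 20.9 intensity units, the 40th percentile of all such means. This kept 31 single-gene and 34 several-gene members among 7453 probe sets, and they cover 54 of the 65 genes. Passing this filter on the mean went with the kind of probe set as the array maker's suffixes describe it. All 11 probe sets with the family suffix (_f_at) and all 3 with the shared suffix (_s_at) were tested, as were 47 of 59 with the plain suffix, 2 of 3 with an incomplete set (_i_at), and 2 of the 12 in which probe selection rules had been dropped (_r_at). The 11 genes without a tested probe set were Rpl15, Rpl31, Rpl32, Rpl35a, Rpl38, Rpl39, Rps27l, Rps13, Rps14, Rps15 and Rps20. Their probe sets averaged 1.65 to 20.2 intensity units in wild type and 2.80 to 16 in the null lines. Most of these genes encode core proteins that every growing cell needs, so such a reading describes the probe set and says nothing of the gene.

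No ribosomal protein probe set passed the test in the average of the null lines. With limma and Benjamini-Hochberg adjustment over all probe sets tested, 0 of 31 single-gene and 0 of 34 several-gene members had an adjusted p under 0.05, while 0.416% of all probe sets tested did. At an unadjusted p under 0.05 the count was 1 of 31 and 1 of 34, against 12.7% of all probe sets tested. These were Rpl22 92857_at, at 1.39 times the wild-type level, and Rpl34 96308_r_at, at 0.684 times. Changes are given as log2(value + 2), which understates the change of dim probe sets. An exact two-sided permutation of 2 against 4 arrays reaches 0.0667 at best, and the adjusted p-values therefore depend on the model.

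The changes were small in both listings. The median change of the single-gene members was 0.045 on the log2 scale (quartiles -0.019 and 0.10, range -0.99 to 0.48), and that of the several-gene members was 0.019 (range -0.55 to 1.79). Over all probe sets tested the median was -0.015. An absolute change under 0.2 was found in 27 of 31 and 28 of 34 members, against 62.5% of all probe sets tested. The 95% interval of the change lay within 1.5-fold in either direction for 24 of 31 and 26 of 34, against 61.3%. Among the probe sets of 1000 or more that are not members it did so for 191 of 217. Brightness went with narrow intervals: of the members at 1000 or more, 22 of 23 single-gene and 23 of 23 several-gene intervals lay within 1.5-fold, but only 2 of 8 and 3 of 11 of the dimmer members did. Among the bright members the fold ran from 0.877 to 1.11 in the single-gene listing and from 0.911 to 1.18 in the several-gene listing. Whether the brightest signals were compressed near the top of the scanner's range was not tested.

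**Figure D1:**
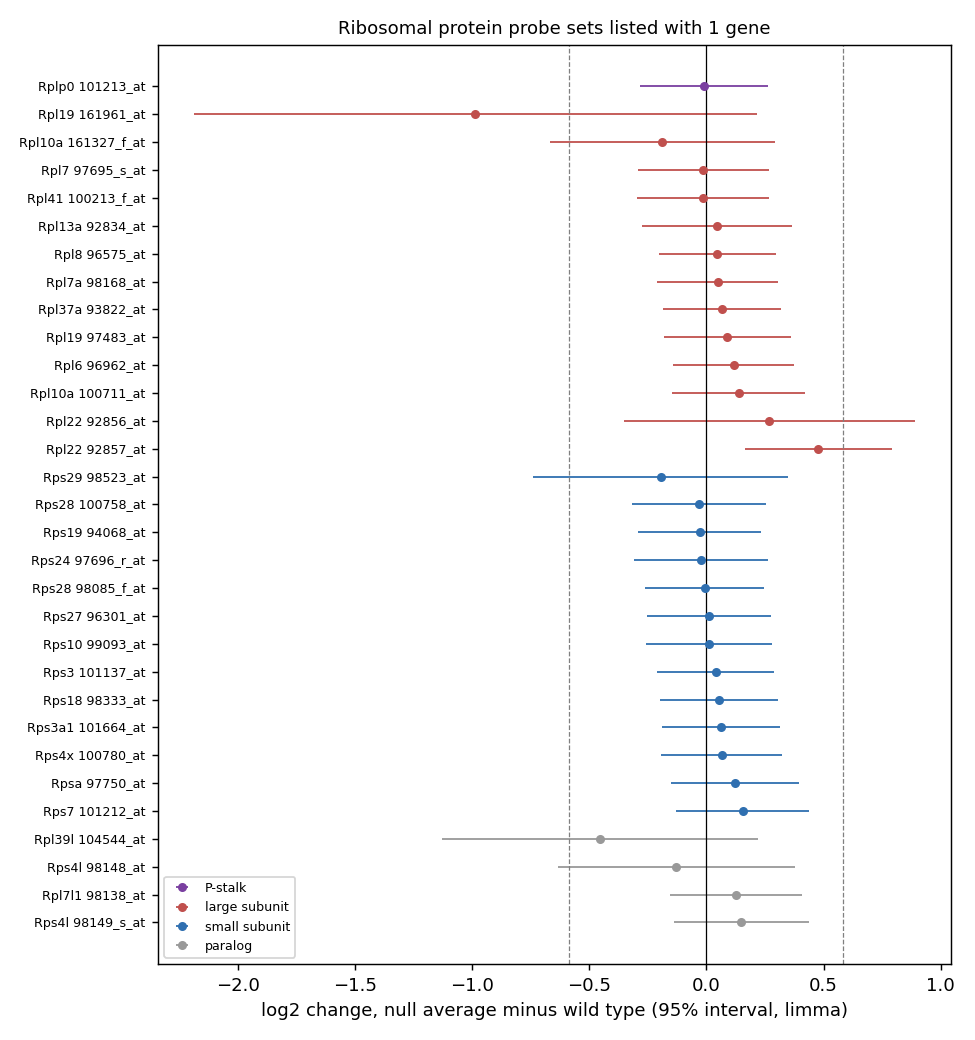
Log2 change of each of the 31 tested single-gene probe sets (horizontal axis, null average minus wild type, log2(value + 2)), by role in the ribosome; points are limma estimates from 4 null and 2 wild-type arrays, bars are 95% intervals, and the dashed lines mark 1.5-fold. Intervals lie within 1.5-fold for 24 of 31, and the widest belong to dim probe sets such as Rpl19 161961_at.

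The direction of the small shifts was mixed and depended on the scaling. Of the members, 19 of 31 and 21 of 34 lay above 0, against 47.3% of all probe sets tested and 62.2% (135 of 217) of the probe sets of 1000 or more that are not members. With quantile normalization 17 of 31 and 16 of 34 lay above 0, against 50.7% of all probe sets tested and 51.6% of the non-members of 1000 or more. The several-gene median turned to -0.013. The single-gene median was then 0.014, against 0.0041 over all probe sets tested. Without the line 1 array of experiment 1 the several-gene median was also below 0, at -0.0049, and it was 0.064 without that of experiment 2, 0.041 without the wild-type array of experiment 2 and 0.042 without the line 2 array of experiment 2. With each array centred on its median, 23 of 31 and 26 of 34 lay above 0, against 51.5% of all probe sets tested and 67.3% of the non-members of 1000 or more. All 4 null arrays were above both wild-type arrays in 3 single-gene and 4 several-gene members, against 11% of all probe sets tested, and below both in 0 and 1, against 12%. The single-gene members were Rpl22 92857_at, Rpl37a and Rpl6, and the several-gene members were Rpl22l1, Rpl10 98342_at, Rpl28 and Rps16, with Rpl34 96308_r_at below.

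**Figure D2:**
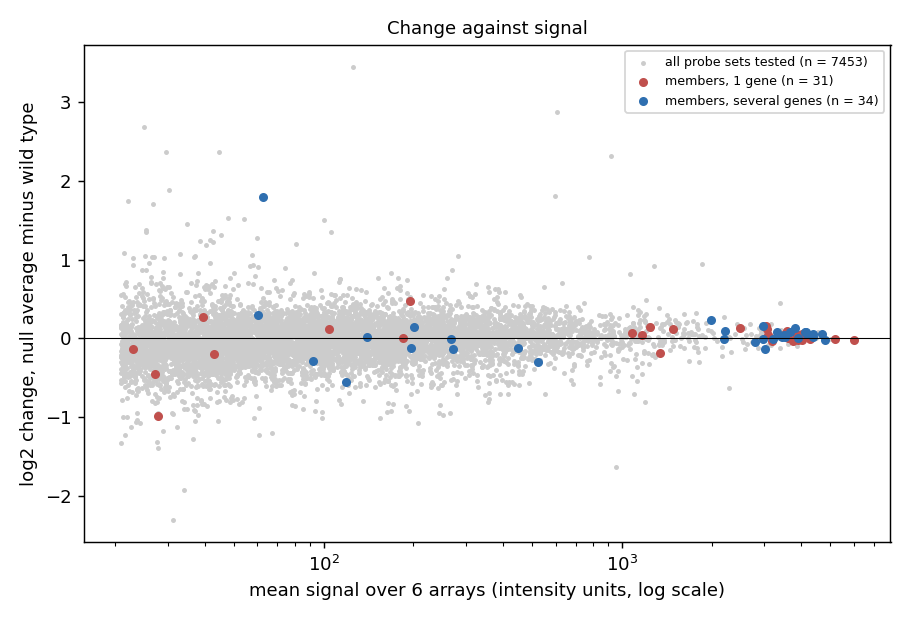
Log2 change (vertical axis, null average minus wild type) against mean signal over the 6 arrays (horizontal axis, intensity units, log scale) for all 7453 probe sets tested (grey), the 31 single-gene members (red) and the 34 several-gene members (blue). Most members sit at the bright end, where changes are close to 0, and the larger changes belong to dimmer members.

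The stalk is the part of the large subunit that touches elongation factors. Its base is Rplp0, whose probe set 101213_at read 5100 and 5349 intensity units in wild type, 5269 and 4628 in line 1, and 5485 and 5407 in line 2. The groups overlapped and the change was -0.010 ± 0.11 (SE, log2; limma, adjusted p = 0.981). Rplp1, an acidic protein of the stalk, was read by 100694_at, which is also listed with a predicted gene. Its signal was 4435 and 5267 in wild type, 4396 and 4150 in line 1, and 5314 and 5314 in line 2. Line 1 was below both wild-type arrays and line 2 above both, but the wild-type arrays themselves lay far apart, and line 1 minus line 2 was -0.32 ± 0.14 (SE, log2; limma, adjusted p = 0.627). The signs of both stalk changes against wild type turned when arrays were centred on their medians, to 0.013 for Rplp0 and 0.0026 for Rplp1.

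Large-subunit genes gave 13 tested single-gene probe sets, of which 9 were above 0, with a median change of 0.047. Rpl22 is an RNA-binding protein at the outside of the subunit that most cells can do without and that T cell development needs. Its probe set 92857_at read 158 and 149 intensity units in wild type, 196 and 229 in line 1, and 200 and 235 in line 2. All 4 null arrays were above both wild-type arrays, and the null mean was 215 ± 19.7 (SD, n = 4) against 153 ± 6.5 (SD, n = 2). The change was 0.48 ± 0.13 (SE, log2; limma, unadjusted p = 0.0097, adjusted p = 0.229), and it was 0.46 in line 1 and 0.49 in line 2. The dimmer Rpl22 probe set 92856_at read 26.2 and 43.3 in wild type, 49.5 and 32.2 in line 1, and 47.2 and 37.7 in line 2, so its groups overlapped, with a change of 0.27 ± 0.26 (SE, log2; limma, adjusted p = 0.711).

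Rpl22l1, the paralog that can take the place of Rpl22 in the ribosome and whose level Rpl22 is known to restrain, was read by 93987_f_at, which is also listed with Gm15421 and Orc5. The signal was 1807 and 1745 intensity units in wild type, 2273 and 2367 in line 1, and 1936 and 1851 in line 2. All 4 null arrays were above both wild-type arrays, with line 1 above line 2. The change was 0.24 ± 0.10 (SE, log2; limma, unadjusted p = 0.0597, adjusted p = 0.418). Line 1 minus line 2 was 0.29 ± 0.12 (SE, log2; limma, unadjusted p = 0.0487, adjusted p = 0.627), so the lines could not be told apart after adjustment.

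The other large-subunit members named by their p-values were Rpl10a, Rpl6, Rpl19 and Rpl13a. Rpl10a, which lies at the L1 stalk where spent transfer RNA leaves, was read by 100711_at at 2372 and 2286 intensity units in wild type, 2577 and 2737 in line 1, and 2670 and 2291 in line 2, a change of 0.14 ± 0.12 (SE, log2; limma, adjusted p = 0.661). The family probe set of Rpl10a, 161327_f_at, read 1400 and 1495, 1638 and 1153, and 1373 and 998, a change of -0.19 ± 0.20 (SE, log2; limma, adjusted p = 0.743). The signs of these changes were opposite and both intervals included 0. Rpl6, a protein of the large subunit, read 2958 and 2874 in wild type, 3109 and 3327 in line 1, and 3185 and 3023 in line 2. Its null arrays all lay above wild type, by 0.12 ± 0.11 (SE, log2; limma, adjusted p = 0.692).

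Rpl19, which takes part in a bridge between the subunits, showed how far the result could depend on the probe set. The dim 161961_at read 47.0 and 33.6 intensity units in wild type, 11 and 26.0 in line 1, and 37.9 and 11.6 in line 2, a change of -0.99 ± 0.49 (SE, log2; limma, adjusted p = 0.466). The bright 97483_at read 3362 and 3504, 3385 and 3682, and 3971 and 3596, a change of 0.090 ± 0.11 (SE, log2; limma, adjusted p = 0.792). The groups overlapped in both. Of the 11 genes with more than 1 tested probe set, 8 had changes of both signs. Rpl13a, known for a role outside the ribosome in silencing inflammatory messages, read 1121 and 1165 in wild type, 1238 and 986 in line 1, and 1293 and 1224 in line 2, a change of 0.045 ± 0.13 (SE, log2; limma, adjusted p = 0.924).

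Small-subunit genes gave 13 tested single-gene probe sets, of which 8 were above 0, with a median change of 0.011. Rps7, which takes part in maturation of the small-subunit RNA, read 3008 and 2665 intensity units in wild type, 3188 and 2902 in line 1, and 3147 and 3384 in line 2, a change of 0.15 ± 0.12 (SE, log2; limma, adjusted p = 0.630). One line 1 array fell between the wild-type arrays. Rps29 98523_at, a zinc-binding protein of the head of the subunit, read 45.5 and 47.1, 46.5 and 27.7, and 38.8 and 51.8, a change of -0.20 ± 0.22 (SE, log2; limma, adjusted p = 0.771). Its other probe set was not tested and lay at or below 11.3 on every array.

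Rps28, at the exit of the messenger RNA channel, read 3803 and 3828 intensity units in wild type, 3785 and 3543 in line 1, and 4111 and 3521 in line 2 with 100758_at. The family probe set 98085_f_at of Rps28 read 4248 and 4309, 4261 and 4147, and 4474 and 4158. The changes were -0.032 ± 0.12 and -0.0070 ± 0.10 (SE, log2; limma, adjusted p = 0.944 and 0.988), and 98086_r_at was not tested. Rps24 97696_r_at, from a gene mutated in some patients with Diamond-Blackfan anaemia, read 3750 and 4408 in wild type, 4110 and 4343 in line 1, and 3745 and 3815 in line 2, a change of -0.025 ± 0.12 (SE, log2; limma, adjusted p = 0.957). Both line 2 arrays were near the lower wild-type array and both line 1 arrays lay between the wild-type arrays. The untested Rps24 probe set 93121_at lay at or below 18.7 on every array.

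Other core members of both subunits lay close to the wild-type level. Rps3, at the entry of the messenger RNA channel, read 3358 and 3501 intensity units in wild type, 3488 and 3391 in line 1, and 3672 and 3544 in line 2, a change of 0.039 ± 0.10 (SE, log2; limma, adjusted p = 0.915). Rpl8, a protein close to the peptidyl transferase centre, read 3858 and 3753, 3916 and 3826, and 4072 and 3904, a change of 0.046 ± 0.10 (SE, log2; limma, adjusted p = 0.892). Rps27, whose start is printed above, read 173 and 195, 180 and 181, and 191 and 188 with 96301_at, a change of 0.010 ± 0.11 (SE, log2; limma, adjusted p = 0.981). Its family probe set 96300_f_at, also listed with Rps27rt, read 2826 and 2843, 2950 and 2710, and 2876 and 2519. The change there was -0.039 ± 0.12 (SE, log2; limma, adjusted p = 0.926), of the opposite sign. These 3 genes were chosen after their values were seen. Across the 31 single-gene members the median SD between arrays of a line was 0.091 on the log2 scale, against 0.16 over all probe sets tested and 0.092 over the non-members of 1000 or more.

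Paralogs of ribosomal proteins can differ from the core genes in the tissues that express them. Rps4l 98149_s_at read 1235 and 1084 intensity units in wild type, 1241 and 1108 in line 1, and 1404 and 1408 in line 2, a change of 0.15 ± 0.12 (SE, log2; limma, adjusted p = 0.635). Only line 2 was above both wild-type arrays. The probe set carries the shared suffix, and how much of its signal comes from Rps4l was not tested. The dimmer 98148_at of Rps4l read 18.3 and 31.5, 19.1 and 19.5, and 23.4 and 26.1, a change of -0.13 ± 0.21 (SE, log2; limma, adjusted p = 0.843). Rpl7l1, a relative of Rpl7 that acts in ribosome assembly, read 96.3 and 99.9, 111 and 95.2, and 109 and 115, a change of 0.13 ± 0.12 (SE, log2; limma, adjusted p = 0.694). Rpl39l, the paralog of Rpl39 best known from male germ cells, read 27.5 and 39.1 in wild type, 16.5 and 28.6 in line 1, and 31.3 and 20.2 in line 2, a change of -0.45 ± 0.28 (SE, log2; limma, adjusted p = 0.549). Groups of both Rpl7l1 and Rpl39l overlapped. Rps27l lay at or below 4.7 on every array and was not tested. Fau, which encodes a ubiquitin-like protein fused to a small-subunit protein and is not a member by name, read 18 and 26.9, 18.1 and 13.1, and 15.1 and 26.9, and fell below the filter.

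Several-gene probe sets mostly showed small changes as well, and 2 with larger values were singled out after their values were seen. Rpl34 96308_r_at, listed with pseudogenes, read 148 and 151 intensity units in wild type, 122 and 132 in line 1, and 90.6 and 72.9 in line 2. All null arrays were below wild type, with line 2 lowest, and the change was -0.55 ± 0.13 (SE, log2; limma, unadjusted p = 0.00505, adjusted p = 0.189). The second Rpl34 probe set, 96307_s_at, read 4217 and 3935, 3997 and 4177, and 4626 and 4226, a change of 0.061 ± 0.11 (SE, log2; limma, adjusted p = 0.855), and its groups overlapped. Rpl29 94240_i_at read 3.3 and 51.9 in wild type, 84.1 and 8.5 in line 1, and 137.5 and 90.5 in line 2. The groups overlapped, the wild-type arrays lay further apart than the change of 1.79 ± 1.13 (SE, log2; limma, adjusted p = 0.564), and 2 of the 6 readings were at or below background.

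Seen by line, no member passed the test in line 1 or in line 2 (limma, 0 of 31 and 0 of 34 in each), while 0.134% of all probe sets tested did in line 1 and 0.255% in line 2. Both comparisons use the same 2 wild-type arrays. At an unadjusted p under 0.05 the counts were 1 and 1 in line 1, against 9.49% of all probe sets tested, and 1 and 2 in line 2, against 14.1%. In line 1 these were Rpl22 92857_at and Rpl22l1, both higher. In line 2 they were Rpl22 92857_at, higher, and Rpl34 96308_r_at and Rpl10 161657_f_at, lower. Rpl34 96308_r_at in line 2 had the smallest adjusted p of any member (limma, -0.86 ± 0.15 SE on the log2 scale, adjusted p = 0.113), and it passed the threshold, as the only member, with a pseudocount of 32 (adjusted p = 0.0437) and where the spread followed the signal (adjusted p = 0.0367).

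With the deposited scaling more members lay above wild type in line 2 than in line 1, but in the several-gene listing this order turned under quantile normalization. In line 1, 15 of 31 and 15 of 34 had a change above 0, against 47.4% of all probe sets tested and 58.5% of the bright non-members. Without its array of experiment 2 these counts were 20 and 27, against 51.1% of all probe sets tested and 57.6% of the bright non-members. Without its array of experiment 1 they were 12 and 11, against 46.5% and 58.1%. In line 2, 25 of 31 and 24 of 34 had a change above 0, against 48.2% of all probe sets tested and 60.4% of the bright non-members. Both line 2 arrays were above both wild-type arrays in 15 of 31 and 15 of 34, against 23.6% of all probe sets tested and 41.0% of the bright non-members. For line 1 the counts were 6 and 6, against 18.9% of all probe sets tested and 29.5% of the bright non-members. The size of the line 2 shift was small, with medians of 0.060 and 0.052 on the log2 scale, and the single-gene median was 0.038 without the wild-type array of experiment 1, 0.095 without that of experiment 2 and 0.099 without the line 2 array of experiment 2. The several-gene median was 0.015 without the line 2 array of experiment 1 and 0.092 without that of experiment 2. Under quantile normalization 19 of 31 and 16 of 34 lay above 0 in line 2, against 51.3% of all probe sets tested, with a several-gene median of -0.023. In line 1, 12 of 31 and 18 of 34 did, against 50.3%. The several-gene median of line 1 minus line 2 was -0.024 with the deposited scaling and 0.037 under quantile normalization. The direct comparison of the lines called 0 of 31 and 0 of 34 members (limma), against 0.0268% of all probe sets tested. At an unadjusted p under 0.05 it counted 0 and 3, against 7.55%.

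**Figure D3:**
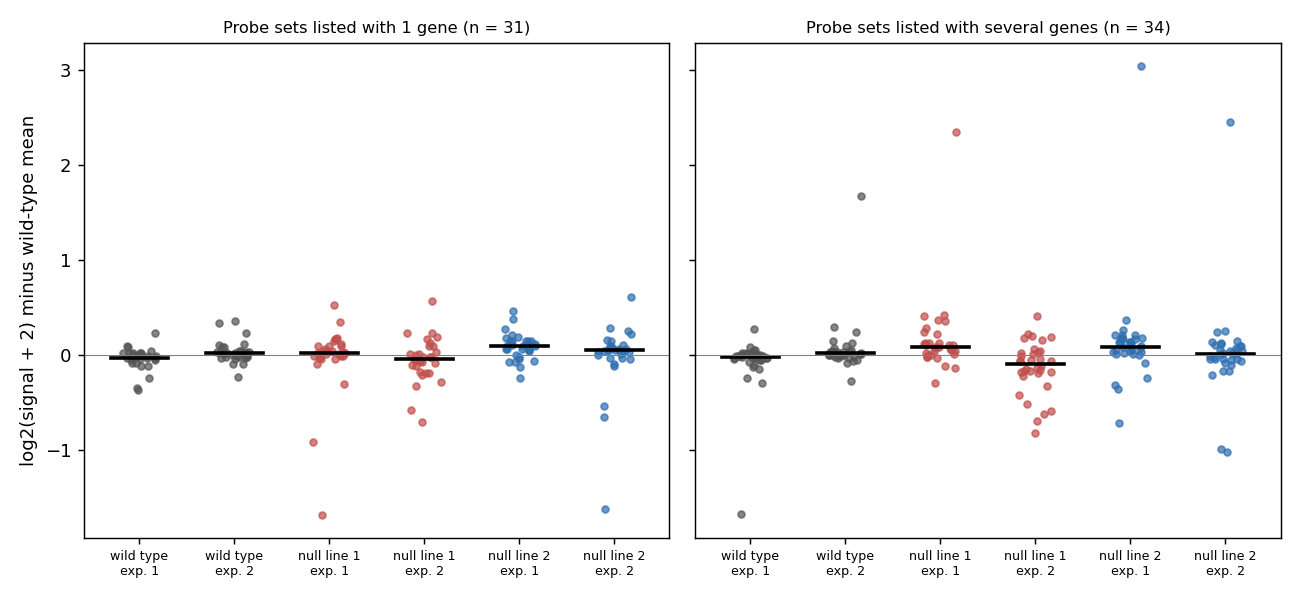
Signal of each tested member on each array, as log2(signal + 2) minus the mean of the 2 wild-type arrays (vertical axis), for 31 single-gene and 34 several-gene probe sets; points are probe sets, bars their median, and exp. stands for experiment. The medians lie between -0.042 and 0.099 in the single-gene listing and between -0.087 and 0.092 in the several-gene listing, with line 1 of experiment 2 lowest and line 2 of experiment 1 highest.

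Members lay above wild type more often in experiment 1 than in experiment 2. Within experiment 1, the mean of the null arrays was above the wild-type array in 28 of 31 single-gene and 31 of 34 several-gene members, against 51.3% of all probe sets tested and 68.7% of the bright non-members. Within experiment 2 it was above in 14 of 31 and 14 of 34, against 45.2% and 57.1%. The medians were 0.076 and 0.090 in experiment 1 and -0.053 and -0.065 in experiment 2, while over all probe sets tested they were 0.0079 and -0.033. Bright members had medians of 0.075 (single-gene) and 0.077 (several-gene) in experiment 1, and of 0.0093 and 0.014 in experiment 2. In the dimmer members, 8 single-gene and 11 several-gene, they were 0.144 and 0.161 in experiment 1 and -0.297 and -0.434 in experiment 2. Each of these values rests on 1 wild-type array. The sign was the same in both experiments in 17 of 31 and 15 of 34, against 62.3% of all probe sets tested. Rpl22 92857_at was higher in both, by 0.32 and 0.63 on the log2 scale, and Rpl34 96308_r_at was lower in both, by -0.49 and -0.61.

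**Figure D4:**
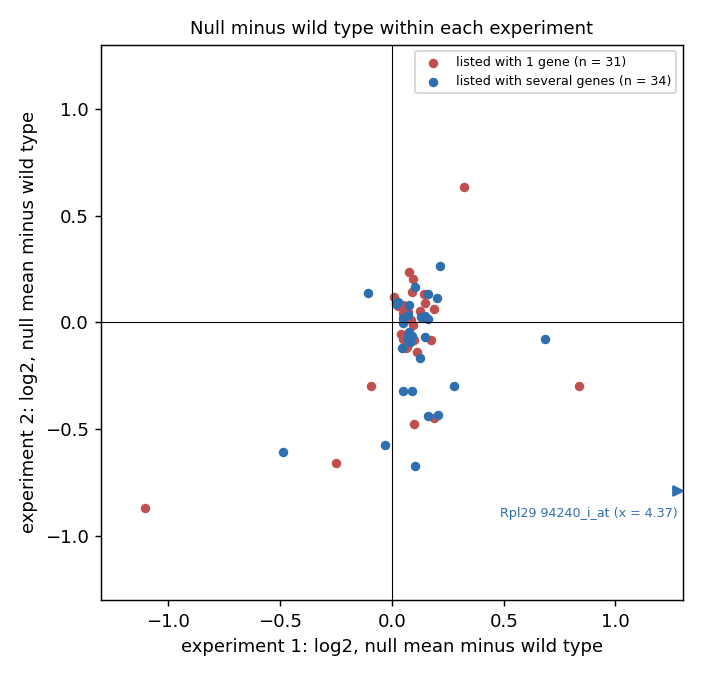
Null mean minus wild type within experiment 1 (horizontal axis, log2) and within experiment 2 (vertical axis, log2) for the 31 single-gene and 34 several-gene members tested; each point is a probe set and rests on 2 null arrays and 1 wild-type array per experiment. Most points lie right of 0 in experiment 1 (28 of 31 and 31 of 34) and on both sides of 0 in experiment 2, and Rpl29 94240_i_at lies outside the axis at 4.37.

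Other genes of ribosome production and translation were followed as lists, with the brightest single-gene probe set standing for each gene. None of the 6 lists held a gene past the threshold in the null average (limma, adjusted p under 0.05), so each is described by its count and median only. Of the ribosome biogenesis genes, whose products process ribosomal RNA and assemble the subunits, 39 of 43 tested lay above 0, with a median of 0.17 on the log2 scale and 0.12 in line 1 and 0.21 in line 2. Quantile normalization left 37 of 43 above 0. The smallest p-values were those of Mybbp1a, a nucleolar protein (0.47 ± 0.12 SE; limma, adjusted p = 0.221), of Imp3, part of the complex that processes small-subunit RNA (0.41 ± 0.12 SE; adjusted p = 0.261), and of Las1l, a nuclease of large-subunit RNA processing (0.34 ± 0.11 SE; adjusted p = 0.291).

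Mitochondrial ribosomal protein genes, which serve a separate ribosome inside mitochondria, lay above 0 in 45 of 58, with a median of 0.12. The median was 0.042 in line 1 and 0.16 in line 2. Mrps24 had the smallest adjusted p of all listed genes. It read 234 and 226 intensity units in wild type, 315 and 343 in line 1, and 379 and 340 in line 2, a change of 0.58 ± 0.11 (SE, log2; limma, adjusted p = 0.134), with no overlap between null and wild type. Genes of RNA polymerase I, which transcribes ribosomal RNA, lay above 0 in 12 of 16, with a median of 0.083 that was 0.047 without the wild-type array of experiment 2. By line it was 0.075 in line 1 and 0.096 in line 2. Initiation factors lay above 0 in 13 of 17, with a median of 0.073, and of 0.13 in line 1 and 0.041 in line 2. The median of 0.073 was 0.16 without the wild-type array of experiment 1, 0.049 (10 of 17) without that of experiment 2 and 0.12 without the line 2 array of experiment 1. Eif2s2, the beta subunit of the factor that brings the initiator transfer RNA, had 0.44 ± 0.11 (SE, log2; limma, adjusted p = 0.203).

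Other messages with a TOP start, such as those of Eif3f, Hnrnpa1 and Btf3, lay above 0 in 7 of 14, with a median of -0.017 that turned to 0.0067 when arrays were centred, while quantile normalization left 4 of 14 above 0. Single arrays moved it further: 3 of 14 lay above 0 (median -0.13) without the wild-type array of experiment 1, 8 of 14 (median 0.058) without that of experiment 2, and 4 of 14 (median -0.036) without the line 2 array of experiment 1. By line the median of these messages was -0.032 in line 1 and -0.0063 in line 2. The regulators of ribosome production and of its surveillance lay above 0 in 3 of 9, with a median of -0.028. It was -0.059 in line 1 and 0.032 in line 2. Here too 1 array turned the sign, with 6 of 9 (median 0.069) without the line 1 array of experiment 2 and 5 of 9 (median 0.0061) without the line 2 array of experiment 1, and the median was -0.065 without the line 1 array of experiment 1. Among them Mycn, a transcription factor that drives genes of ribosome production, read 309 and 272 intensity units in wild type, 368 and 445 in line 1, and 415 and 422 in line 2, a change of 0.50 ± 0.13 (SE, log2; limma, adjusted p = 0.215), with no overlap. Beside these, the 23 core ribosomal protein genes with a tested single-gene probe set lay above 0 in 16, with a median of 0.046, and the background over all probe sets tested was 47.3%.

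**Figure D5:**
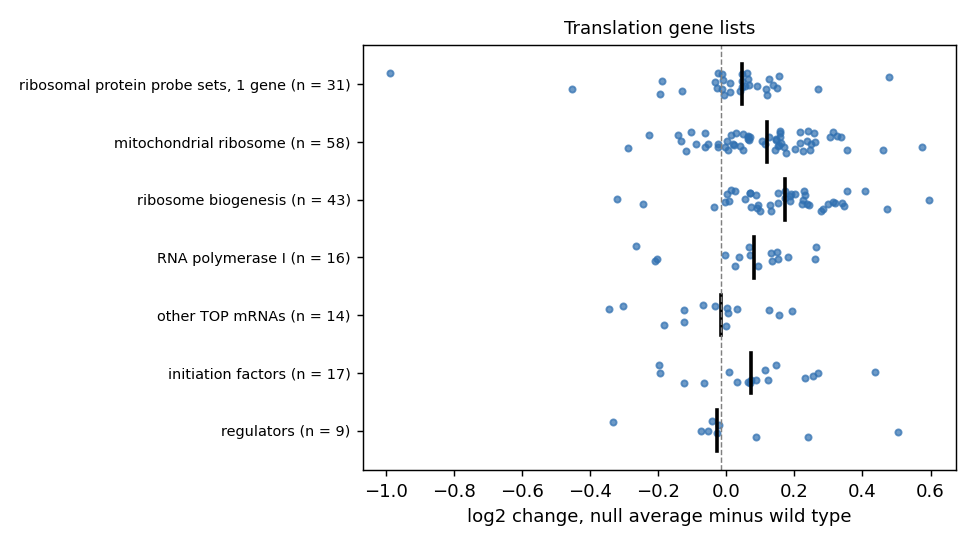
Log2 change (horizontal axis, null average minus wild type) of the 31 single-gene ribosomal protein probe sets and of the tested genes of 6 lists; points are probe sets, black bars their medians, and the dashed line the median of all probe sets tested. The medians run from -0.028 for the regulators to 0.17 for ribosome biogenesis, with 0.045 for the ribosomal protein probe sets.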

How the data were processed

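RNA from mouse embryonic stem cells was measured on 6 arrays, 2 for wild type and 2 for each null line. The deposited table holds linear intensities, 1 per probe set and array. They came from MAS5, per the submitters' processing notes, in a version not stated in the labels or headers used here. The authors' scaling was kept, and detection calls are not used here. Names come from the platform annotation, with older symbols updated through a gene table of assembly GRCm38.p6, which also gave the sequences.

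The 66 control probe sets were left out, and probe sets with a mean of at least 20.9 (40th percentile) were tested. Log2(value + 2), with the 10th percentile of all values as pseudocount, was fitted with a mean per line over all 6 arrays in limma 3.58.1 (lmFit and eBayes) in R 4.3.3, and p-values were Benjamini-Hochberg adjusted over all 7453 probe sets with a threshold of 0.05. The scripts were tested on simulated data. Plots used matplotlib 3.10.9 in Python 3.11.15. The number of arrays limits the precision.

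Named probe sets were the 6 single-gene ones with the smallest unadjusted p on each side in the null average. The 3 on each side between the lines were added, as were all paralogs among the 65 genes, Fau and the stalk genes. Each such gene was given with all its probe sets, and other lists with up to 3 genes. Other probe sets are named with their reason. Members and lists were chosen with earlier results of these data known. Alternatives were the normalization, pseudocount, filter, fit, replicate block and leaving out each array.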

Additional observations from a re-analysis of the deposited data

Results flagged for a closer look

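In 2 several-gene probe sets the null lines lay on opposite sides of wild type with no overlapping array. How often this pattern occurs over all probe sets tested was not counted. Taken singly, line 1 lay below both wild-type arrays in 20.6% of them, and line 2 above both in 23.6%. Rps12 102126_at, the probe set of a small-subunit protein listed with many pseudogenes, read 4547 and 4621 intensity units in wild type, 4516 and 4456 in line 1, and 5057 and 5013 in line 2. Line 1 minus line 2 was -0.17 on the log2 scale (limma, adjusted p = 0.728). Rplp1 100694_at gave -0.32 between the lines (limma, adjusted p = 0.627). Neither difference passed the threshold.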

How the results depend on the processing

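The count of ribosomal protein probe sets past the threshold was 0 under every alternative run in the null average, in line 1 and between the lines. In line 2 it was 1 with a pseudocount of 32 and 1 where the spread followed the signal, both times Rpl34 96308_r_at, and 0 otherwise; why it passed was not tested. The smallest adjusted p of a member in line 2 ran from 0.0367 to 0.480 over the settings. The median change of the single-gene members, 0.045, was 0.010 without the filter, which adds dim probe sets, and 0.014 with quantile normalization, which narrowed its distance from all probe sets tested from 0.060 to 0.0096. Leaving out each array in turn, it ran from 0.0090 (without wild type of experiment 1) to 0.067 (without wild type of experiment 2), with 0.017 and 0.029 without the experiment 1 arrays of lines 1 and 2, and the counts stayed at 0. Centring turned the sign of Rplp0 (to 0.013) and Rplp1 (to 0.0026). Leaving out each array gave both signs for Rps4l 98148_at (-0.49 to 0.23), Rps24 97696_r_at (-0.14 to 0.092), Rplp1 (-0.14 to 0.10), Rplp0 (-0.057 to 0.037), Rpl13a (-0.037 to 0.13) and Rps28 100758_at (-0.088 to 0.024). These single values were followed for the 17 tested probe sets picked by p-value, as paralogs or as stalk genes. Their other values, 228 in all, kept their direction and their side of the threshold. The direction of the other probe sets named above was not followed through the alternatives.

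The experiment numbers were not shown to pair the arrays: over the probe sets tested, the differences between experiments correlated with r of 0.053, 0.095 and 0.073 between lines. With the replicate block, 0 members passed in any comparison, and over all probe sets tested the null average called 14 in place of 31. Dim members limit what can be seen: 23 of 49 single-gene probe sets averaged under 100.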
